A study of Mus musculus with 6 samples.

Results

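The xenobiotic phase I and II enzymes described here are the protein-coding genes of the cytochrome P450 families CYP1 to CYP4 (Cyp), the flavin-containing monooxygenases (Fmo), the UDP-glucuronosyltransferases and their relatives (Ugt), the carboxylesterases (Ces) and the epoxide hydrolases (Ephx). They were picked out by gene symbol and biotype, and 133 of the 54100 genes in the count table belong to them. The choice of this set was made with earlier results of these data known. Of the 133, 58 had no read in any library, 39 had fewer than 30 counts over the 6 libraries, and the remaining 36 were analysed. The samples were whole testis cryosections of mice with an H3t deletion (3 libraries) and of wild-type mice (WT, 3 libraries), each sequenced by stranded SMART-Seq RNA-seq as total RNA. H3t is a testis histone H3 variant, listed in the table as H3f4, and the study concerns Leydig cells, the testosterone-producing cells of the interstitium, in testes whose spermatogenesis is disrupted. The labels used here give no strain, age or other allele for either group, and do not say what the deletion removes.

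These enzymes act on foreign and endogenous lipophilic compounds in a sequence of steps. Phase I enzymes add or expose a polar group: P450s and FMOs insert oxygen, carboxylesterases cleave esters, and epoxide hydrolases open the reactive epoxides that P450s can leave behind. Phase II enzymes such as the UGTs then attach a sugar, which makes the product easier to excrete. The families are best known from liver, and many members also handle steroids, fatty acids, eicosanoids and vitamins made in the body. In the testis, somatic cells such as Leydig and Sertoli cells are known to express several of these enzymes.

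Total counts ran from 8315960 to 8988520 in deletion libraries and from 8037826 to 10702930 in WT libraries. Values below are CPM, the count of a gene per 1000000 counts of its library, scaled by TMM, a factor that allows for differences in composition between libraries. H3f4 had 0 counts in each deletion library, against 390, 571 and 356 counts in WT libraries, at least 643-fold lower when set against 3 counts over the group. The cell makeup differed widely between the groups: 14 of 14 spermatid markers were lower, with summed levels of 90.6 to 196 CPM in the deletion, against 32830 to 34792 CPM in WT. All 12 Leydig markers and all 19 Sertoli markers were higher, and Leydig markers summed to 7323 to 7951 CPM in the deletion, against 841 to 915 CPM in WT. Markers of other somatic cells were mostly higher as well: 10 of 10 for macrophages (median log2 fold change 2.91), 8 of 9 for endothelium (1.42) and 6 of 8 for interstitial mesenchyme (1.70). Of 7 peritubular myoid and smooth muscle markers, 5 were higher and 1 lower (0.92). Their summed levels were close, at 662 to 714 CPM in the deletion, against 624.5 to 647 CPM in WT. All 13 spermatocyte markers were lower, while of 9 tested spermatogonial markers 6 were higher and 1 lower. In such bulk samples, fewer cells of a type and less RNA per cell cannot be told apart, and this holds for every value below. Hepatocyte markers, which would mark the organ best known for these enzymes, summed to 0.904 to 1.33 CPM in the deletion, against 2.80 to 4.23 CPM in WT.

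The 36 analysed genes showed 2 opposite patterns in testes with the deletion. Of the 31 that passed the filter on low counts, 23 were higher in the deletion, 7 were lower, and Ugt8a alone was not called by edgeR's quasi-likelihood test at a Benjamini-Hochberg false discovery rate of 0.05. Over all 17038 genes tested, 38.4% were called higher and 46.1% lower. Thus 74.2% of the tested members were higher and 22.6% lower, and the share called at all, 96.8%, stood beside 84.5% of all genes. Of the 31 tested members, 20 were called higher by at least 4-fold, as were 15.3% of all genes tested. The median log2 fold change, deletion over WT, was 2.40 for the 31 members and -0.19 for all genes tested. All 3 deletion libraries lay above all 3 WT libraries for 25 of the 36 genes and below them for 10, whereas 39.2% of all genes tested were above and 46.7% below. The groups overlapped for 1 of the 36, and 85.9% of all genes tested did not overlap in either direction. A gene that is low in both groups could not enter, so these counts describe the genes that passed and not the families as a whole.

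**Figure D1:**
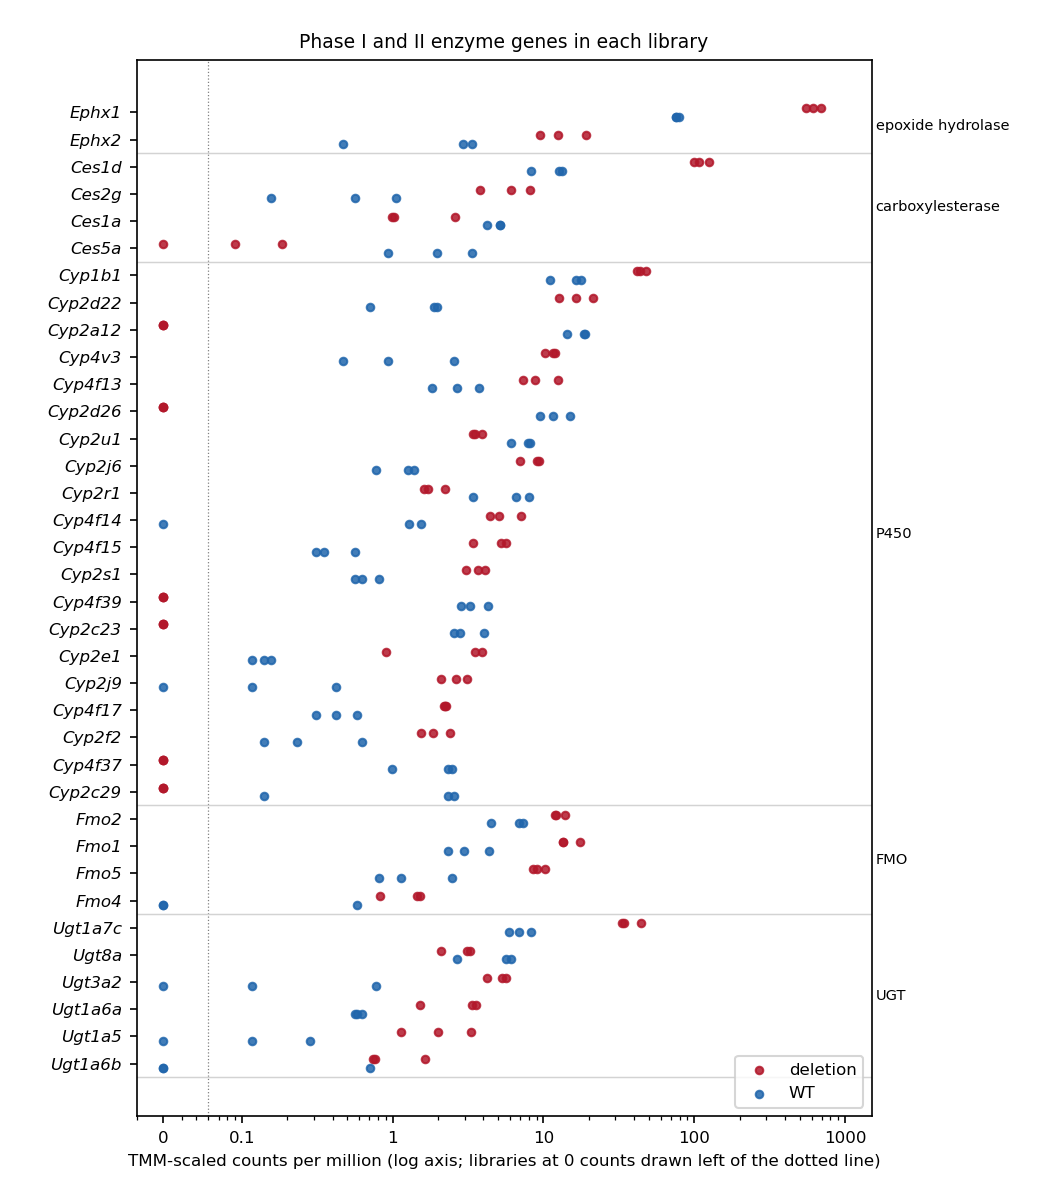
TMM-scaled CPM (log axis) of the 36 analysed genes, 1 row per gene and 1 point per library, with 3 deletion and 3 WT libraries; libraries at 0 counts are drawn left of the dotted line. The 3 deletion points lie to the right of the 3 WT points for 25 genes and to the left for 10, and 6 genes have no deletion count at all.

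Many genes of these families had no reads in these testes. No read was counted in either group for 9 of the 10 Ugt2 genes, 7 of the 9 Cyp3a genes and 7 of the 8 Cyp4a genes, families that carry much of drug, steroid and fatty acid turnover in liver. None of those 3 families, and none of the 5 Cyp2b genes, reached 30 counts. Cyp1a1 and Cyp1a2, the classical targets of the aryl hydrocarbon receptor, had 1 count each over all libraries. Detection was more even among the epoxide hydrolases, where 2 of 4 genes were analysed, and among the FMOs, with 4 of 7. At the threshold of 30 counts, Cyp2c29 with 38, Ugt1a6b with 39 and Cyp4f37 with 43 counts were the lowest inside, and Ephx4 with 28, Ces1h with 27 and Ugt1a1 with 27 were the nearest outside.

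The epoxide hydrolase Ephx1 held the largest part of the reads of the whole group in every library. Ephx1 (ENSMUSG00000038776, chr1:180976210-181020904, minus strand, GRCm38) encodes the microsomal epoxide hydrolase, which turns epoxides of drugs and polycyclic hydrocarbons into diols. It had 612, 552 and 693 CPM in the deletion libraries, against 76.3, 78.9 and 76.0 CPM in the WT libraries. The lowest deletion library was thus far above the highest WT library, and the WT libraries lay very close together. The log2 fold change was 3.0 ± 0.10 (SE; adjusted p = 3.12e-13). Ephx2, the soluble epoxide hydrolase that acts on fatty acid epoxides, was much less abundant and more variable. It had 19.2, 9.50 and 12.5 CPM in the deletion and 0.467, 2.91 and 3.38 CPM in WT, with a log2 fold change of 2.56 ± 0.42 (adjusted p = 4.01e-05). Within a library, the ratio of Ephx1 to Ephx2 on the log2 scale was 4.99, 5.86 and 5.79 in the deletion, against 7.35, 4.76 and 4.49 in WT. The first WT library, with 3 counts of Ephx2, lay above all deletion libraries and the other WT libraries below them.

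The carboxylesterases, a family of 19 genes on chromosome 8 of which 4 were analysed, moved in both directions. The Ces1 genes and Ces5a lie far from the Ces2, Ces3 and Ces4a genes: Ces5a ends at base 93535830 and Ces2a starts at base 104734003. Ces1d (chr8:93166068-93197838, minus strand), a lipase-like esterase known for triacylglycerol hydrolysis in liver and fat, had the second highest number of reads of the whole group over all libraries. Its levels were 99.8, 108 and 126 CPM in the deletion and 8.25, 13.4 and 12.7 CPM in WT, a log2 fold change of 3.26 ± 0.16 (adjusted p = 2.21e-11). Ces2g was low but also higher, with 8.20, 3.80 and 6.10 CPM in the deletion and 0.156, 1.05 and 0.564 CPM in WT. Its log2 fold change was 3.25 ± 0.52 (adjusted p = 3.23e-05) and 3.96 without the second WT library. Ces1a, a close paralog of Ces1d, went the other way. It had 1.01, 0.995 and 2.57 CPM in the deletion against 5.14, 5.12 and 4.23 CPM in WT, and the groups did not overlap. Its log2 fold change was -1.66 ± 0.44 (adjusted p = 0.00258), and -2.25 without the third deletion library, the highest of the 3. The ratio of Ces1d to Ces1a within a library was 6.33 ± 0.63 on the log2 scale in the deletion and 1.22 ± 0.47 in WT (SD, n = 3 each), a difference of 5.11 that does not depend on library scaling. Part of the Ces1a exons, 18.1%, is overlapped by Gm45463 on the other strand, a gene with few reads itself. Ces5a, whose protein is known from cat urine, was too low to test, with 2, 1 and 0 counts in the deletion and 6, 29 and 14 counts in WT, a ratio of 0.0418 (95% exact interval 0.00833 to 0.129, counting error only).

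Among the P450s, 12 of the 18 tested genes were higher and 6 lower, and none was left uncalled. The P450 with most reads over all libraries was Cyp1b1 (chr17:79701537-79715061, minus strand), which oxidises estradiol and polycyclic hydrocarbons and is known as a target of the aryl hydrocarbon receptor. Cyp1b1 had 47.7, 43.8 and 41.5 CPM in the deletion and 16.3, 17.7 and 11 CPM in WT. Its rise, 1.56 ± 0.17 on the log2 scale (adjusted p = 4.68e-07), was the smallest among the 12 P450s called higher. Cyp2d22, described as the nearest mouse counterpart of the human drug-metabolising CYP2D6, had 21.2, 16.5 and 12.8 CPM in the deletion and 1.87, 1.98 and 0.705 CPM in WT. This was a log2 fold change of 3.45 ± 0.34 (adjusted p = 1.24e-07). Cyp4v3, the counterpart of a human fatty acid hydroxylase (CYP4V2) linked to retinal degeneration, had 11.5, 11.9 and 10.2 CPM in the deletion and 0.467, 0.930 and 2.54 CPM in WT. Its log2 fold change was 3.08 ± 0.40 (adjusted p = 3.54e-06), and 3.89 without the third WT library.

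Both Cyp2j genes that could be tested were higher; Cyp2j enzymes are known to epoxidise arachidonic acid. Cyp2j6 had 7.0, 9.41 and 9.06 CPM in the deletion and 0.778, 1.40 and 1.27 CPM in WT, a log2 fold change of 2.85 ± 0.36 (adjusted p = 2.10e-06). Cyp2j9 had 3.13, 2.62 and 2.10 CPM in the deletion and 0, 0.116 and 0.423 CPM in WT, and its log2 fold change of 3.76 ± 0.69 (adjusted p = 0.000124) became 5.02 without the third WT library. Cyp2s1 and Cyp2f2, the second known for bioactivating naphthalene in lung, were also higher, with log2 fold changes of 2.40 ± 0.46 and 2.53 ± 0.61. Both had under 5 CPM in every library, and Cyp2f2 reached 3.22 without the first WT library.

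Cyp2e1, the P450 known for oxidising ethanol and acetone, was nearly without reads in WT and uneven in the deletion. It had 38, 10 and 41 counts in the deletion libraries and 1 count in each WT library, a ratio of 20.2 (95% exact interval 6.71 to 100, counting error only; adjusted p = 0.000134). The second deletion library, the lowest of the 3, was also low for several markers of fat and of the rete testis and efferent ducts. The adipocyte marker Cfd had 39, 0 and 44 counts in the deletion and 0, 0 and 4 in WT, and Pax8, a marker of the rete testis and efferent ducts, had 35, 0 and 29 counts in the deletion and 0 in each WT library. The 6 adipocyte markers summed to 32.3, 11.9 and 25.8 CPM in the deletion, against 5.70 to 6.54 CPM in WT. Of the 3 adipocyte markers that could be tested, 2 were higher in the deletion and 1 was lower. The 12 epididymal, rete and efferent duct markers summed to 5.43, 0.271 and 4.96 CPM in the deletion, against 3.74 to 5.0 CPM in WT, and 7 of the 12, among them Lcn5, Crisp1 and Rnase9, had no count in the deletion, while 9 of the 12, Pax8 among them, had none in WT. Rnase10, the single gene of that list that could be tested, was lower, with 0 counts in each deletion library and 11, 25 and 23 counts in WT. Cyp2e1 was called without each library in turn, at log2 fold changes of 3.88 to 4.64. The part of these tissues in the level of Cyp2e1 was not tested.

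Of the P450s that were lower, 4 had no read at all in the deletion, and these were the largest fold differences among the tested P450s. Cyp2a12 (ENSMUSG00000060407, chr7:27029081-27037375, plus strand), an enzyme known to hydroxylate testosterone, had 0 counts in each deletion library and 14.3, 18.7 and 18.9 CPM in WT. It was at least 189-fold lower (adjusted p = 1.43e-09). Cyp2d26 (chr15:82790101-82794294, minus strand), a paralog of Cyp2d22, had 0 counts in each deletion library and 11.5, 9.53 and 14.9 CPM in WT, at least 128-fold lower (adjusted p = 1.47e-08). Cyp4f39, the counterpart of human CYP4F22, which makes lipids of the skin barrier, had 0 counts in the deletion and 3.27, 4.30 and 2.82 CPM in WT, at least 38.1-fold lower (adjusted p = 2.26e-06). Cyp2c23, an arachidonic acid epoxygenase known from kidney, had 0 counts in the deletion and 4.05, 2.79 and 2.54 CPM in WT, at least 33.2-fold lower (adjusted p = 3.47e-06). Cyp4f37 and Cyp2c29 were untested and likewise had 0 counts in the deletion, against 43 and 38 counts in WT. Of all genes tested, 6.96% had 0 counts in all 3 deletion libraries, as did 4 of the 31 tested members. A stretch of Cyp2a12, 20.1% of its 50-base words, is shared with Cyp2a22, which had no reads in either group.

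The other P450s called lower, Cyp2u1 and Cyp2r1, were reduced but present. Cyp2r1, the vitamin D 25-hydroxylase, had 2.21, 1.72 and 1.62 CPM in the deletion and 3.42, 6.63 and 8.04 CPM in WT, a log2 fold change of -1.70 ± 0.39 (adjusted p = 0.000891). Cyp2u1, which hydroxylates long-chain fatty acids, had 3.50, 3.44 and 3.91 CPM in the deletion and 6.07, 7.91 and 8.18 CPM in WT, a log2 fold change of -1.03 ± 0.29 (adjusted p = 0.00381). The call for Cyp2u1 was lost with no scaling factor (-0.39) and with upper-quartile scaling (-0.49).

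All FMOs that could be tested, 3 of 3, were higher in the deletion. FMOs oxidise the nitrogen and sulfur atoms of drugs and dietary amines. Fmo1, Fmo2 and Fmo4 lie side by side on chromosome 1, and Fmo5 lies on chromosome 3. Fmo1 had 17.5, 13.4 and 13.4 CPM in the deletion and 2.96, 2.33 and 4.37 CPM in WT, a log2 fold change of 2.21 ± 0.27 (adjusted p = 2.03e-06). Fmo2, the form best known from lung, had 14.0, 12.2 and 11.9 CPM in the deletion and 7.32, 6.86 and 4.51 CPM in WT. Its log2 fold change of 1.03 ± 0.24 (adjusted p = 0.000956) was the smallest of the 23 called higher. Fmo5, which can also insert oxygen next to a ketone, had 10.3, 8.50 and 9.06 CPM in the deletion and 2.49, 0.814 and 1.13 CPM in WT, a log2 fold change of 2.69 ± 0.38 (adjusted p = 7.48e-06). Per kilobase of exon, Fmo1 and Fmo2 had 2.34 ± 0.374 and 2.27 ± 0.201 CPM in the deletion, against 0.510 ± 0.166 and 1.11 ± 0.268 CPM in WT (SD, n = 3 each), so the pair stood level in the deletion and Fmo2 stood higher in WT. Fmo4 was untested, with 41 counts in the deletion and 5 in WT.

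Of the 5 UGTs tested, 4 were higher and 1 was not called. Ugt1a genes share their last exons and differ in the first, so reads of the common part cannot be assigned to a member with certainty. Ugt1a7c, in which 53.7% of 50-base words also occur in another gene, had 44.2, 34.4 and 33.0 CPM in the deletion and 5.92, 8.26 and 6.91 CPM in WT, a log2 fold change of 2.39 ± 0.19 (adjusted p = 1.06e-08). Ugt1a6a, known for conjugating phenols, and Ugt1a5 were also called higher but had under 4 CPM in every library. Their shared portions were 52.1% and 64.0%, and Ugt1a5 had 3 counts in WT, a ratio of 15.9 (95% exact interval 5.23 to 79.1, counting error only). Its fitted log2 fold change was 3.86, and 4.73 without the third WT library. Ugt1a6b was untested, with 8, 18 and 8 counts in the deletion and 0, 0 and 5 in WT. Ugt3a2, whose human counterpart uses sugars other than glucuronic acid, had 5.34, 5.61 and 4.19 CPM in the deletion and 0.778, 0.116 and 0 CPM in WT. The change was 4.13 ± 0.65 on the log2 scale (adjusted p = 2.51e-05), and 6.02 without the first WT library, which held most of the WT reads.

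Ugt8a stood apart from the other UGTs. It transfers galactose to ceramide and related lipids, a step needed for myelin lipids and for seminolipid, the sulfated glycolipid of male germ cells. Ugt8a had 3.13, 2.08 and 3.24 CPM in the deletion and 6.07, 2.67 and 5.64 CPM in WT, and it was the single analysed gene whose groups overlapped. The log2 fold change was -0.75 ± 0.39 (adjusted p = 0.0884). Without the second WT library it was -1.07 (adjusted p = 0.0208), and with median-of-ratios scaling -0.92 (adjusted p = 0.0394).

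**Figure D2:**
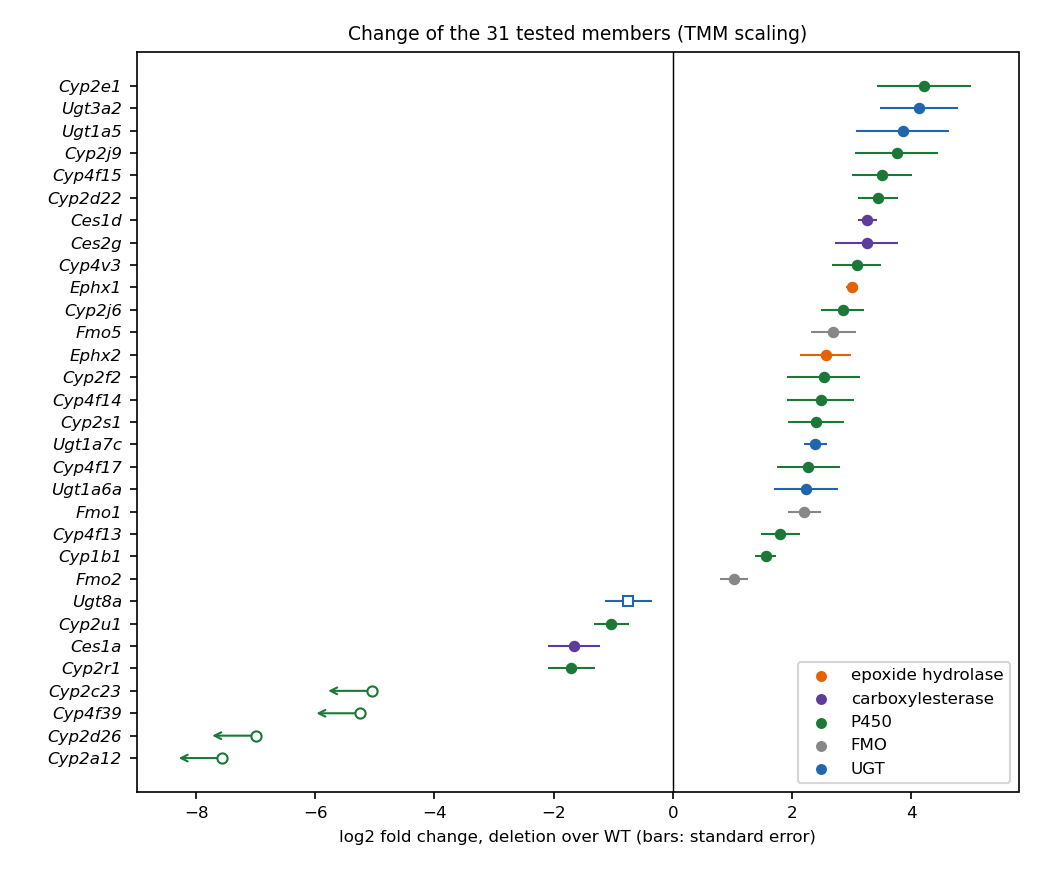
Log2 fold change, deletion over WT, of the 31 tested genes with TMM scaling, in colours for the 5 families; bars are standard errors from edgeR, and genes with 0 counts in the deletion are drawn at their bound with an arrow. FMOs lie to the right of 0 throughout, while P450s lie on both sides, with Cyp2a12 at least 189-fold lower.

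The makeup of the group's reads, a measure free of any scaling factor, differed between testes with and without the deletion. Ephx1 took 64.4 ± 2.33% of the analysed members' counts in the deletion and 38.5 ± 1.39% in WT (SD, n = 3 each, as for the shares that follow). Ces1d took 11.6 ± 1.13% in the deletion and 5.68 ± 1.16% in WT. The P450s together took 12.5 ± 1.33% in the deletion and 38.8 ± 0.622% in WT, and the 2 ranges were far apart. Cyp2a12 and Cyp2d26 alone accounted for 8.62 ± 0.974% and 6.02 ± 1.45% of the WT counts and for none in the deletion. Cyp1b1 took a smaller share in the deletion, 4.64 ± 0.545%, than in WT, 7.50 ± 1.75%, although its CPM was higher. The UGTs, with 5.35 ± 1.01% in the deletion and 6.55 ± 0.833% in WT, overlapped between groups. Summed over all 133 genes, the families took 1177, 1115 and 1306 CPM of the raw totals in the deletion and 157, 176 and 167 CPM in WT.

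**Figure D3:**
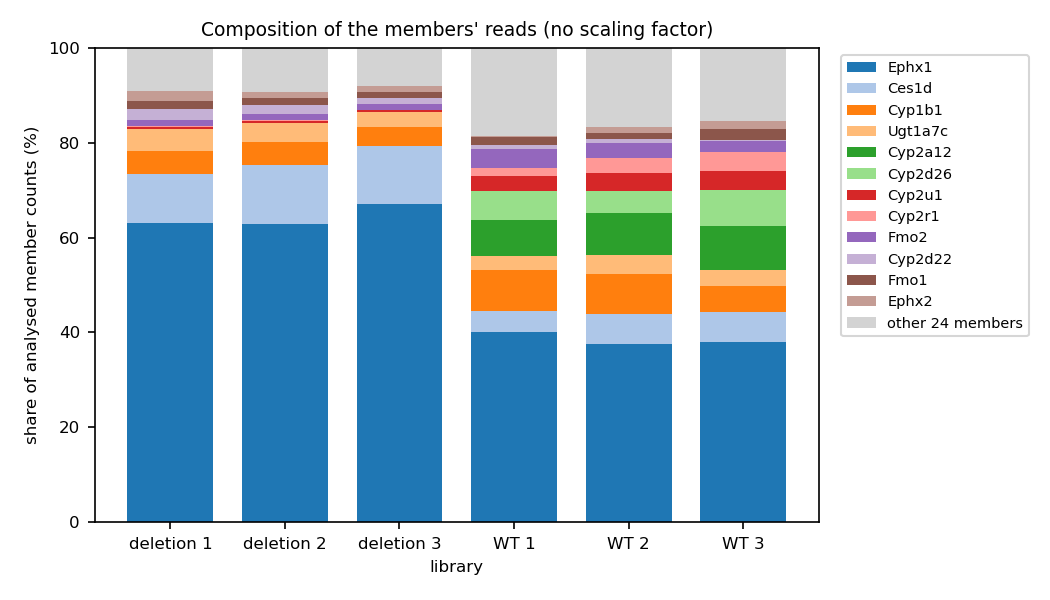
Share of the counts of the 36 analysed genes (% of their sum in each library) taken by the leading genes, with the others in grey; each bar is 1 library, the 3 deletion libraries left of the 3 WT libraries. Ephx1 fills about the same large part of each deletion bar (mean 64.4%) and a smaller part of each WT bar (38.5%), and Cyp2a12 and Cyp2d26 appear in WT bars only.

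Levels of different genes were compared as CPM per kilobase of exon. In the deletion Ephx1 led with 317 ± 36.2 CPM per kilobase, followed by Ces1d with 46.9 ± 5.68 (SD, n = 3 each). Ugt1a7c with 8.81 ± 1.45 and Cyp1b1 with 7.59 ± 0.541 came next. Other genes overlap 54.6% of the Ugt1a7c exon length, where reads cannot be assigned with certainty, so this pair is not ranked. Ephx2 with 5.53 ± 2.01 and Cyp2d22 with 4.30 ± 1.08 did not differ beyond their spread. In WT Ephx1 again led, with 39.5 ± 0.837 CPM per kilobase. The next places in WT were held by Cyp2d26 with 6.70 ± 1.53, Cyp2a12 with 5.01 ± 0.749 and Ces1d with 4.83 ± 1.17, whose order lies within their spread. Of these 3, Cyp2d26 and Cyp2a12 had no read in the deletion.

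Several of these genes stand in tandem arrays. Called genes of both directions stood in the Cyp4f, Cyp2d and Ces1 arrays and among the Cyp2 genes of chromosome 7. Those of the Ugt1a (3 higher), Fmo (2 higher) and Cyp2j (2 higher) arrays went one way. Of the Cyp2c genes, 1 was called, Cyp2c23, which was lower and lies apart from the others on chromosome 19. On chromosome 17, 8 Cyp4f genes lie within 495 kb, from Cyp4f39 at the low end to Cyp4f13 at the high end (chr17:32452723-32947402). Cyp4f enzymes hydroxylate the ends of fatty acids and leukotrienes. Cyp4f39 at the low end had 0 counts in the deletion and 78 in WT, and its neighbour Cyp4f17 had 72 in the deletion and 10 in WT. Next came Cyp4f16 with 21 counts in the deletion and 3 in WT, Cyp4f37 with 0 in the deletion and 43 in WT, and Cyp4f40 with 0 in the deletion and 4 in WT. The last 3 were all higher. Cyp4f15 had 5.62, 3.44 and 5.24 CPM in the deletion and 0.311, 0.349 and 0.564 CPM in WT, a log2 fold change of 3.50 ± 0.50 (adjusted p = 9.30e-06). Cyp4f14, known for inactivating leukotriene B4, had 4.42, 5.06 and 7.05 CPM in the deletion and 0, 1.28 and 1.55 CPM in WT. The change was 2.48 ± 0.57 on the log2 scale (adjusted p = 0.000838) and 3.32 with limma voom. Cyp4f13 had 8.75, 12.6 and 7.34 CPM in the deletion and 3.74, 2.67 and 1.83 CPM in WT, a log2 fold change of 1.80 ± 0.33 (adjusted p = 0.000125). Along the array, both kinds were thus interspersed: genes without reads in the deletion and genes higher in it.

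The 8 Cyp2d genes on chromosome 15 also held 2 called members of opposite direction, which are not neighbours. Cyp2d22 and Cyp2d26 mark the ends of an array of 424 kb, and 5 of the 8 genes had no read. Cyp2d22 had 546 counts in the deletion and 34 in WT, while Cyp2d26 had 0 in the deletion and 262 in WT. Among the 15 Cyp2c genes on chromosome 19, 9 had no read and reads of the others came mainly from WT. Cyp2c23, Cyp2c29, Cyp2c66 and Cyp2c65 had 0 counts in the deletion and 68, 38, 20 and 12 counts in WT. Cyp2c55 had 7 counts in the deletion and 15 in WT, and Cyp2c70, with 5 counts in the deletion and 0 in WT, was the exception. On chromosome 7, Cyp2a12, without a read in the deletion, lies beside Cyp2f2, which was higher there.

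**Figure D4:**
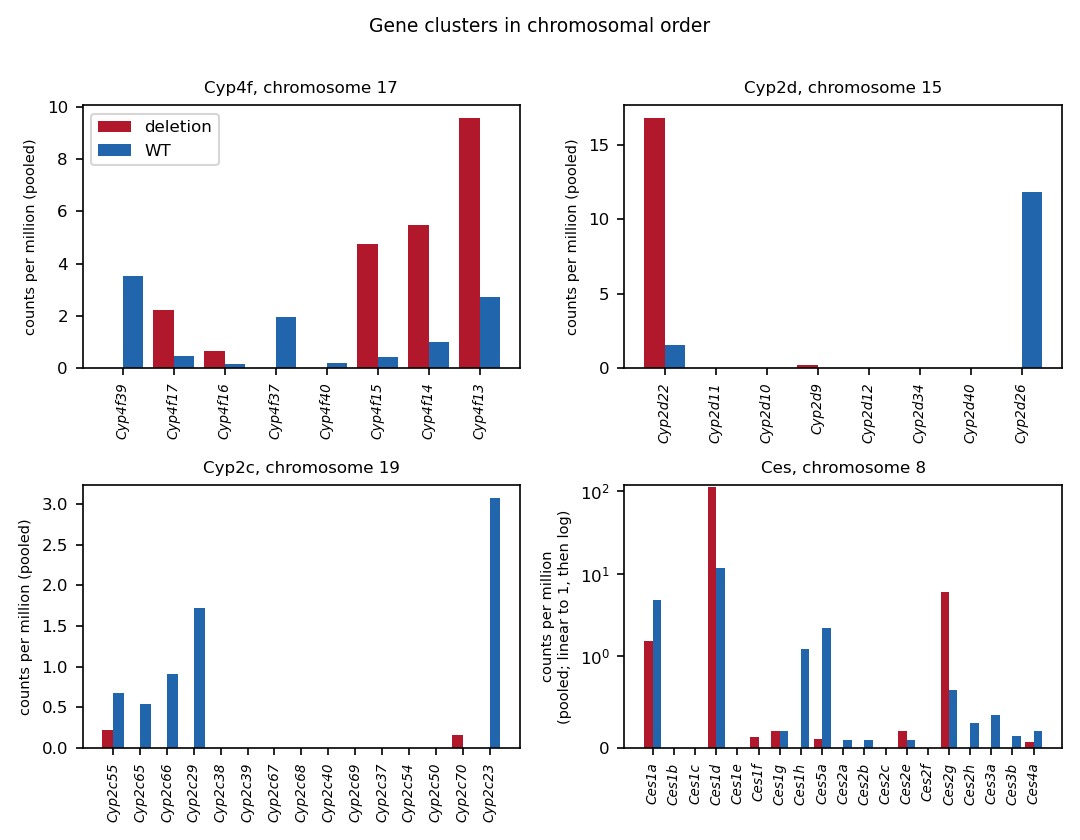
Pooled CPM of 4 sets of genes in chromosomal order, with the deletion bar left of the WT bar for each gene. The panel marked as such has an axis that is linear up to 1 and logarithmic above. Bars are evenly spaced, so gaps within the Ces and Cyp2c sets do not show. Genes with no deletion bar, such as Cyp4f39, Cyp2d26 and Ces1h, stand in the same arrays as genes with a taller deletion bar, such as Cyp4f15, Cyp2d22 and Ces1d. In the Cyp2c panel, where Cyp2c23 also has no deletion bar, no gene was called higher.

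The 250 bases before the annotated start were read for 27 of the 36 genes, from RefSeq promoter windows on GRCm38.p6; the genes not matched were Ces1d, Cyp2d22, Fmo1, Ephx2, Cyp2u1, Ugt3a2, Cyp4f17, Cyp2c23 and Ugt1a6b. The 4 shown here were chosen because they set genes of opposite direction side by side: Ephx1 and Cyp4f15, higher in the deletion, and Cyp4f39 and Cyp2a12, without a read there. The windows are chr1:181017570-181017819 on the minus strand for Ephx1, which lies inside the annotated gene at one of its starts, chr17:32685409-32685658 on the plus strand for Cyp4f15, chr17:32452473-32452722 on the plus strand for Cyp4f39 and chr7:27028840-27029089 on the plus strand for Cyp2a12. Each runs 5′ to 3′ towards the start, and capitals mark, on either strand, the letters of a TATA box (TATAAA), of the receptor core described next (GCGTG) and of a GC box (GGGCGG).
Ephx1: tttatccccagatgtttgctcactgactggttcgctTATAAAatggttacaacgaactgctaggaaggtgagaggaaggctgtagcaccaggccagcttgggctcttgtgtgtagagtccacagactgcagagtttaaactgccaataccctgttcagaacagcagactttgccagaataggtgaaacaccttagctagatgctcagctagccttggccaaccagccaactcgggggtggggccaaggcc
Cyp4f15: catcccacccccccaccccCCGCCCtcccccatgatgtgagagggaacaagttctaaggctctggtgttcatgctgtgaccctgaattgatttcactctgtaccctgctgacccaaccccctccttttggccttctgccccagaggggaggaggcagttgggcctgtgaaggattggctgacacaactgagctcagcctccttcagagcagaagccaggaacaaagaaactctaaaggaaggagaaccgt
Cyp4f39: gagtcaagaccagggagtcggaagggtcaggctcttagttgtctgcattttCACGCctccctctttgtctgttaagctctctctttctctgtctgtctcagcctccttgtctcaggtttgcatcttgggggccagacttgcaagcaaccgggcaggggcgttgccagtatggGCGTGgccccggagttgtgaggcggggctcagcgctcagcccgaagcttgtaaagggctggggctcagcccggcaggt
Cyp2a12: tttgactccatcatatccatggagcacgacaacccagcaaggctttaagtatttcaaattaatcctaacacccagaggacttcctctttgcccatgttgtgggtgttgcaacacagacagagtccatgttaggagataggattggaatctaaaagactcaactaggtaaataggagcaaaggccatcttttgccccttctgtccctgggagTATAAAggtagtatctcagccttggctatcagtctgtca

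The Cyp2a12 window held TATAAA 39 bases before the start, and the Ephx1 window held it 214 bases before. GCGTG, the core of the element bound by the aryl hydrocarbon receptor, stood 78 and 199 bases before the start of Cyp4f39, and GGGCGG, a GC box, stood 231 bases before that of Cyp4f15. GCGTG was found in 5 of the 18 windows of genes whose deletion libraries were all above WT (27.8%) and in 1 of the 8 of genes all below (12.5%), against 28.2% of the windows of all 27018 genes; Ugt8a is in neither set. GGGCGG was found in 8 of 18 (44.4%) and 0 of 8, against 32.9% of all windows. TATAAA was found in 3 of 18 (16.7%) and 3 of 8 (37.5%), against 13% of all. AAGGTCA, the site of the steroidogenic factor NR5A1, was found in 2 of 18 (11.1%) and 1 of 8 (12.5%), against 4.05% of all, and TGACGTCA, the cyclic AMP response element, in 0 of 18 and 0 of 8, against 1.62%. Both strands were searched for each motif; none of these 5 lies inside another. The median number of CG dinucleotides per window, those inside the motifs included, was 3 in the 18, 1.5 in the 8 and 6 over all genes. These matches describe letters in a window and are not binding sites.

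Whether a gene is called higher depends on what the libraries are scaled to. With Sertoli markers set to the same level in every library, 6 of the 31 tested genes were higher, 10 lower and 15 uncalled, against 3.91% of all genes higher and 77.1% lower. The 6 were Ephx1 (log2 fold change 0.81), Ces1d (1.09), Cyp2d22 (1.27), Ugt3a2 (1.98), Cyp4f15 (1.36) and Cyp2e1 (2.14). With Leydig markers set to the same level, none was higher, 13 were lower and 18 uncalled, against 0.44% of all genes higher and 90.3% lower. At that level Ephx1 stood at -0.15 and Ces1d at 0.12, and neither was called. The median log2 fold change with TMM was 3.17 for the Leydig markers and 2.91 for the macrophage markers, and the part of either cell type in these levels was not tested. Cyp1b1 at -1.59, Fmo2 at -2.12, Fmo1 at -0.93, Cyp4f13 at -1.33 and Ugt1a7c at -0.76 were called lower relative to Leydig markers. The median of the 31 genes was 0.24 at the Sertoli level and -0.73 at the Leydig level, and that of all genes -2.38 and -3.33. The 7 genes lower with TMM stayed lower with both marker scalings. Both scalings shift all genes downward, so that outcome was set in advance and adds no support.

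**Figure D5:**
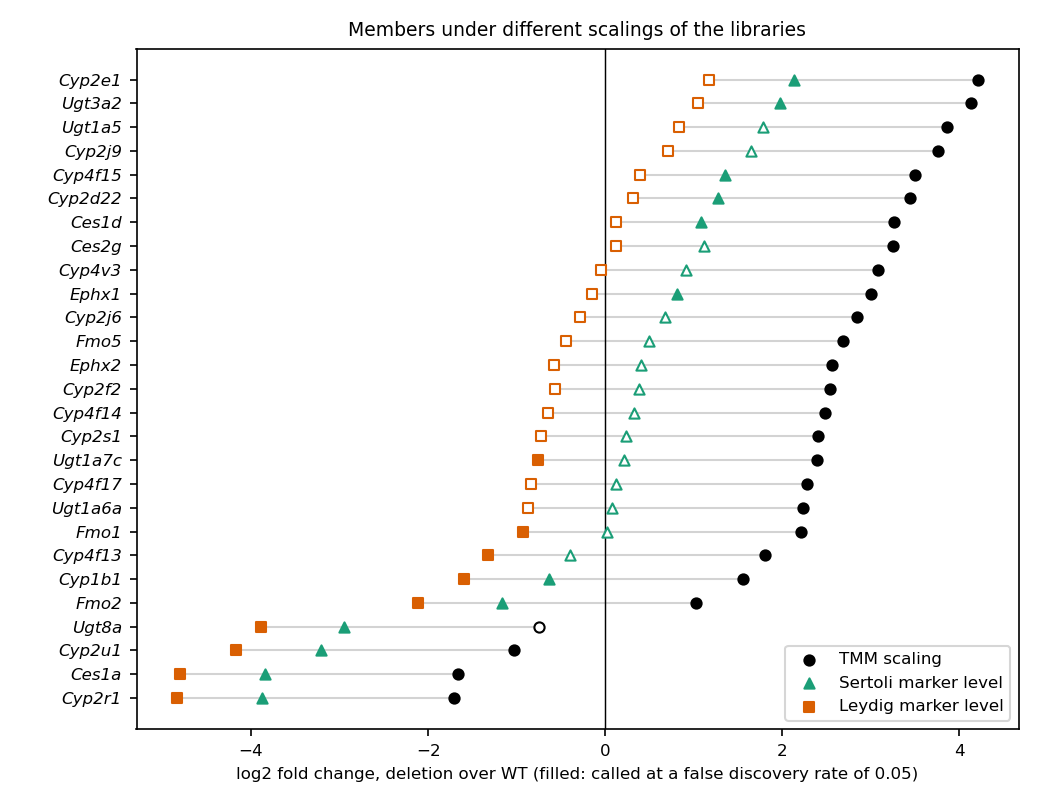
Log2 fold change, deletion over WT, of the tested genes under TMM scaling, with Sertoli markers held equal and with Leydig markers held equal (1 row per gene; filled symbols are called at a false discovery rate of 0.05). Cyp1b1 and Fmo2 change sign between TMM and both marker scalings, and Ephx1 moves to near 0 (-0.15) at the Leydig level. Tested genes without deletion reads are not drawn.

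The enzymes that supply and follow these families were also mostly higher in the deletion. Of 123 tested genes in 7 related lists, 90 were higher, 19 lower and 14 uncalled, against 38.4% and 46.1% of all genes; with Leydig markers held equal the counts were 1 higher and 99 lower. Of the 21 electron partners and heme enzymes of P450s, 16 were higher and 4 lower, with a median log2 fold change of 1.64. Pgrmc1, a heme-binding partner of P450s, had 498 ± 14.7 CPM in the deletion, against 100.3 ± 3.27 CPM in WT, a log2 fold change of 2.31, and Cyb5b, a cytochrome b5, one of 1.63. Por, the reductase on which every microsomal P450 depends, is named after its values were seen: it had 69.4 ± 4.42 CPM in the deletion, against 18.4 ± 4.79 CPM in WT (SD, n = 3 each), a log2 fold change of 1.90 ± 0.16 (adjusted p = 1.72e-08). Hmox2, which breaks down heme, went the other way, with 51.6 ± 1.71 CPM in the deletion, against 690 ± 40.1 CPM in WT, a log2 fold change of -3.74; 41.9% of its 50-base words also occur in another gene.

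Of the 9 genes for UDP-glucuronic acid supply and use and for glucuronide cleavage, 8 were higher and 0 lower (median 1.68), among them Ugp2 (1.0), Uxs1 (1.68) and Pgm1 (2.13). Of the 19 xenobiotic receptors and partners tested, 14 were higher and 2 lower (median 0.89), among them the coregulators Ncoa1 (0.88) and Ncoa2 (0.98). The aryl hydrocarbon receptor gene Ahr, also named after its values were seen, had 7.61 ± 1.35 CPM in the deletion, against 1.98 ± 0.444 CPM in WT, a log2 fold change of 1.95 ± 0.34 (adjusted p = 6.29e-05). The liver receptor genes Nr1i2 and Nr1i3, which encode PXR and CAR, had 0 and 2 counts in the deletion and 1 and 0 counts in WT. Of the 7 sulfotransferase and sulfate-donor genes tested, 6 were higher and 1 lower (median 1.91). Sult1e1, the estrogen sulfotransferase, had 305 ± 78.7 CPM in the deletion, against 24.3 ± 2.64 CPM in WT, a log2 fold change of 3.66, with Sult1a1 at 2.83 and Papss1 at 1.87. Of the 10 methyl, acetyl and amino acid conjugating genes, 8 were higher and 1 lower (median 2.15), with Tpmt at 2.13 and As3mt, whose groups overlap, at -0.91. Of the 35 other phase I oxidoreductases, 25 were higher and 4 lower (median 1.62), with Aldh2, the mitochondrial aldehyde dehydrogenase, at 2.76, Akr1b8 at 2.20 and Akr1a1 at 1.48. The 22 transporters tested split most, with 13 higher and 7 lower (median 1.10). The efflux pump gene Abcc1 had 209.6 ± 6.30 CPM in the deletion, against 49.5 ± 3.79 CPM in WT, a log2 fold change of 2.08. Slco6c1, a testis anion transporter gene, had 0.303 ± 0.376 CPM in the deletion, against 210.2 ± 4.62 CPM in WT (-9.35), and Slco6d1 stood at -8.40.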

How the data were processed

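The samples were testis cryosections of 3 mice labelled H3t deletion and 3 labelled wild-type, with 1 stranded SMART-Seq library each, per the labels. The authors deposited raw counts per Ensembl gene. The submitters' processing notes name Trim Galore, HISAT2, featureCounts and GRCm38. Software versions, annotation release and strand setting: not given in the sources used here. Overlapping and antisense genes therefore cannot be separated with certainty. A number in each title is all that tells samples of a group apart, and p-values reflect the spread among these samples, part of which may be technical. Within groups, every pair of libraries differed by more than sampling noise, at a chi-square per degree of freedom from 4.48 to 6.88. All sample columns were used (0 left out).

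edgeR 4.0.16 in R 4.3.3 was run on all genes: filterByExpr kept 17038, TMM factors were 1.21 to 1.27 for the deletion and 0.794 to 0.806 for WT, and the quasi-likelihood test gave p-values adjusted by Benjamini-Hochberg over those genes, called at 0.05. The coefficient of biological variation came to 13.1%. These steps were tested on simulated data in which both groups had the WT profile and only a small set of genes was changed. That test does not cover a difference in composition as wide as the one between these groups. A gene at 0 counts in the deletion is given as a bound against 3 counts over the group (0.0926 CPM), and intervals are exact at 95%; both cover counting error only. Mitochondrial genes took 21.6 to 22.7% of counts in the deletion and 5.59 to 6.44% in WT. Coordinates, exon lengths and 50-base words shared between genes come from GENCODE M21, which holds all 54100 genes of the table, and promoter windows from RefSeq on GRCm38.p6. DESeq2 1.42.0, limma 3.58.1, other scalings, filters and thresholds, and leaving out each library in turn served as alternatives.

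The members, the related lists and the marker lists were chosen with earlier results of these data known. Genes were named by a rule: the 24 members with the highest mean CPM, the leading 2 of each family, the 4 largest gains and losses, and up to 3 called genes of each related list by abundance. Of the analysed members, Ces5a, Cyp2c29, Cyp2f2, Cyp4f17, Cyp4f37, Fmo4, Ugt1a6a and Ugt1a6b fell outside it, as did the members under 30 counts, Por, Ahr, Nr1i2 and Nr1i3, and were named after their values were seen. Some genes that the rule names are not reported here.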

Additional observations from a re-analysis of the deposited data

Results flagged for a closer look

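Reads were also found for genes of the families that were too low to be analysed. Cyp4f16 had 6, 8 and 7 counts in the deletion libraries, 21 in all, and 0, 0 and 3 counts in the WT libraries; 17.4% of its 50-base words also occur in another gene. Ugt1a2 had 11, 8 and 1 counts in the deletion, 20 in all, and 0 in each WT library; 63.7% of its 50-base words are shared, mainly with the other Ugt1a genes. Both lie above the limit of 3 counts that a count of 0 allows, and neither was tested.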

How the results depend on the processing

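The scaling of the libraries decided most. The 23 members called higher became 0 with Leydig markers held equal and 6 with Sertoli markers held equal, and the 7 called lower became 13 at the Leydig level. Among genes of the related lists, the 90 higher became 1 and 11, and the 19 lower became 99 and 64, at the Leydig and the Sertoli level. At the Leydig level the log2 fold changes of Ephx1 (-0.15), Cyp1b1 (-1.59), Ugt1a7c (-0.76), Fmo2 (-2.12), Fmo1 (-0.93), Ephx2 (-0.58), Cyp4v3 (-0.043), Cyp4f13 (-1.33), Fmo5 (-0.45), Cyp2j6 (-0.28), Cyp4f14 (-0.65), Cyp2s1 (-0.73), Ugt1a6a (-0.87), Cyp4f17 (-0.83) and Cyp2f2 (-0.56) turned negative. At the Sertoli level those of Cyp1b1 (-0.63), Fmo2 (-1.17) and Cyp4f13 (-0.40) did. The alternative's own construction, which moves the median of all genes to -3.33 and -2.38, sets these values. No scaling factor moved that median to 0.45 and upper-quartile scaling to 0.35, from -0.19 with TMM.

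Leaving out the members with over 20% of 50-base words shared raised the share of the epoxide hydrolases to 68.9% in the deletion and 45.4% in WT and lowered that of the P450s in WT to 34.5%, since Cyp2a12 is among the 5 members left out. Without 1 library at a time, 23 to 24 members were higher and 8 to 10 lower. Of 465 comparisons of a member's log2 fold change with an alternative that does not use marker scaling, 461 kept direction and call and 0 turned; the other 4 concern Ugt8a and Cyp2u1. With DESeq2 10 members were lower, and with no filter 25 were higher and 10 lower, since more genes were tested. No paired analysis was possible because the labels give each sample its own number and no number is shared between the groups. Depth limits the low members: 1 to 3 counts in a group leave wide intervals, as for Cyp2e1 and Ugt1a5.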

Other observations

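The 39 genes of these families with 1 to 29 counts held further contrasts, given here as counts without a test. Of the 39, 19 had reads in WT libraries alone, 8 in deletion libraries alone and 12 in both. These counts describe the 39 genes only, and no share over all genes of that count range is given beside them. Ces1h had 0 counts in the deletion and 27 in WT, and Cyp2c66 had 0 in the deletion and 20 in WT. Ugt1a1, the bilirubin-conjugating enzyme, had 21, 1 and 0 counts in the deletion and 0, 4 and 1 in WT, so that most of its reads came from 1 deletion library. Ephx4 had 4, 2 and 1 counts in the deletion and 9, 8 and 4 in WT.

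Rows of the same families that are not protein-coding were outside the rule, and 5 of 31 such rows had any reads. The pseudogene Cyp4f41-ps, of the Cyp4f family, had 0 counts in each deletion library and 12, 7 and 20 counts in WT. Cyp2c52-ps had 1, 3 and 4 counts in the deletion and 4, 12 and 3 counts in WT.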
